A study of Danio rerio with 4 samples.

Results

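The constitutive proteasome genes of the injured zebrafish ventricle are described here. They were chosen by a rule on names that uses no measured value, but with earlier results of these data known. They are the 46 rows, of 17221 in the gene table, whose symbol begins with psma, psmb, psmc, psmd, psme, psmf or psmg, after 7 rows for immunoproteasome subunits and for the activator genes *psme1* and *psme2* were set aside. The 46 comprise 9 genes of the alpha ring and 7 of the beta ring of the 20S core, 7 ATPases and 12 non-ATPase subunits of the 19S particle, 4 activator or inhibitor genes and 6 assembly chaperones. The remaining row, *psmc3ip*, matches the name rule but encodes a meiotic recombination cofactor that is no part of the proteasome. The deposited annotation gave the pathway term Proteasome to 39 of the 46.

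The proteasome degrades proteins tagged with ubiquitin. Its 20S core is a barrel of stacked alpha and beta rings, in which *psmb5*, *psmb6* and *psmb7* encode the catalytic subunits, and the 19S particle on its end binds ubiquitin chains, removes them and unfolds the substrate. Cells make the subunits together, and in mammals the transcription factor Nrf1 raises their genes jointly when degradation falls short. Heart muscle relies on the proteasome to clear damaged sarcomere proteins.

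Ventricles of adult zebrafish of strain AB were taken for sequencing of messenger RNA 24 h after cryoinjury, a local freezing injury of the heart wall. The control group was WT, and the other, transgenic group carried Tg(hsp70l:sflt4), in which the heat-inducible *hsp70l* promoter drives sflt4, which encodes soluble Flt4, a receptor that captures its ligand Vegfc. Fish of both groups were cryoinjured and then given a heat shock at 39 °C. Pools of 3 ventricles gave 1 library each, 2 for each group. The design asks which transcripts depend on Vegfc signaling, and its comparison is Tg(hsp70l:sflt4) against WT.

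The values are normalized read counts, that is, reads per gene divided by a size factor for each library and rounded. Normalized totals ran from 30171847 to 34096403 per library, and an estimate of the size factors put the reads counted in genes at between 29000000 and 34800000. The cardiomyocyte marker *myl7*, a cardiac myosin light chain gene, read 204313 to 335222. Endogenous *flt4* read 618 and 515 in the WT pools and 504 and 538 in the transgenic pools, and the sources used here do not give the transgene's sequence, so these reads need not report it. Of 17071 genes tested with limma, 0 (0.0%) passed an adjusted p of 0.05, and 0 passed with limma-voom. At an unadjusted p under 0.05 limma gave 1881 genes (11.0%) and limma-voom 1839. Libraries stood apart within groups: *hsp70l*, an inducible chaperone gene, read 461 and 4264 in the WT pools and 1191 and 647 in the transgenic pools.

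The proteasome subunit genes moved as 1 block from library to library, within groups as well as between them. Of the 35 genes for 20S and 19S subunits, 33 were lowest in WT replicate 1 and 33 were highest in transgenic replicate 2. Among all genes tested, 29.6% were lowest in the first of these libraries and 26.4% highest in the second. All 35 were higher in WT replicate 2 than in WT replicate 1, and all 35 were higher in transgenic replicate 2 than in replicate 1. These steps held for 50.3% and 51.2% of all genes tested, and both together for 29.5%. The subunit genes share libraries and are not independent, so these counts describe the 4 libraries and not a condition.

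The size of these steps was alike across subunits. WT replicate 2 exceeded WT replicate 1 by a median ratio of 1.17, from 1.06 for *psma8* to 1.37 for *psmd11b*. Transgenic replicate 2 exceeded replicate 1 by a median ratio of 1.16, from 1.05 for *psmb2* to 1.28 for *psma6a*. The ratio of group means, Tg(hsp70l:sflt4) over WT, had a median of 1.104, from 0.965 for *psmb5* to 1.33 for *psma6l*. The median ratio of group means was thus smaller than the median step between replicates of either group. A mean of 2 libraries varies less than a single library, so these ratios are not measured alike. Between single libraries of different groups, the median ratio was 1.31 for transgenic replicate 2 over WT replicate 1, the widest of the pairs. It was 1.14 for transgenic replicate 1 over WT replicate 1, 1.09 for transgenic replicate 2 over WT replicate 2, and 0.951 for transgenic replicate 1 over WT replicate 2.

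Each library can be placed by the deviation of its log2 values from a gene's mean over the 4 libraries. The mean deviation of the 35 subunit genes was -0.21 in WT replicate 1, 0.05 in WT replicate 2, -0.03 in transgenic replicate 1 and 0.18 in transgenic replicate 2. WT replicate 2 lay above transgenic replicate 1, so the groups overlapped. Around these means the genes scattered with an SD of 0.07, 0.06, 0.06 and 0.06 in the same order. The other 11162 genes in the members' range of mean values scattered with an SD of 0.34, 0.34, 0.25 and 0.30. Their quartiles were closer, at -0.17 and 0.14 in WT replicate 1 and -0.10 and 0.10 in transgenic replicate 1. They were not matched in level to the subunit genes, since the range began at 127.75. Their median mean value was 674.5, against 4144 for the subunit genes. Counting error alone was smaller, with a median SD of 0.02 (log2) per subunit gene in each library.

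**Figure D1:**
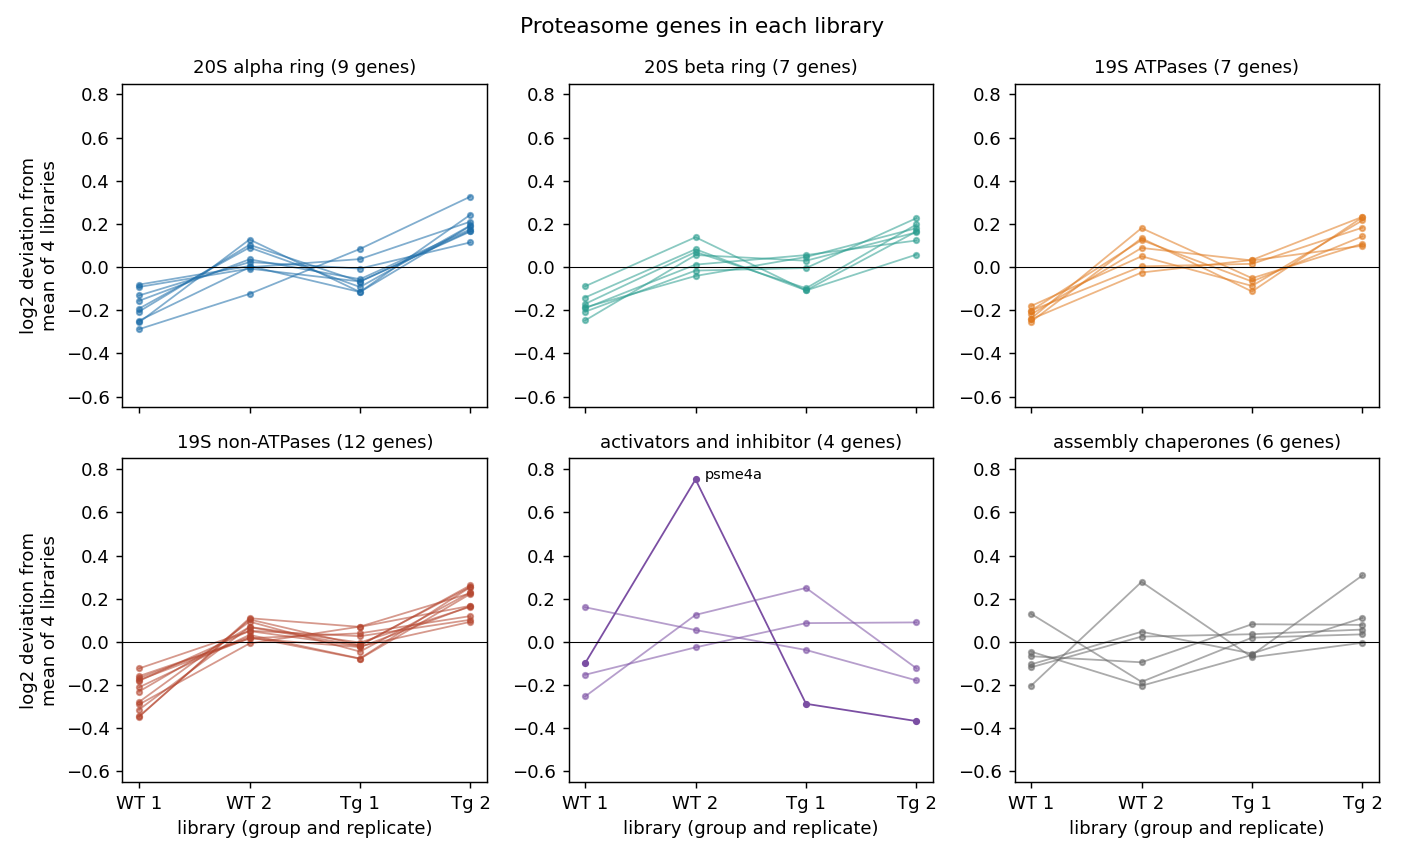
Log2 deviation of each proteasome gene from its mean over the 4 libraries (y axis) in WT and Tg(hsp70l:sflt4) (Tg) libraries (x axis), by part of the complex, with a line joining the points of each gene. The 4 panels of ring and 19S subunits share a shape, lowest in WT replicate 1 for 33 of 35 genes, while *psme4a* stands high in WT replicate 2.

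Taken as reads, the 46 genes made up 0.398% and 0.474% of the normalized total in the WT pools and 0.502% and 0.529% in the transgenic pools. These shares did not overlap between groups. The summed normalized reads of the 46 genes did overlap, at 135549 and 160304 in the WT pools and 151610 and 173512 in the transgenic pools. The normalized total was lowest in transgenic replicate 1, at 30171847. The share of mitochondrial genes was lower in the transgenic pools, at 19.5% and 18.8% in the WT pools against 14.4% and 17.1%. Within the transgenic group both shares were higher in replicate 2 than in replicate 1. As a share of reads outside the mitochondrial chromosome, the proteasome genes took 0.494% and 0.584% in the WT pools and 0.587% and 0.639% in the transgenic pools. On that scale WT replicate 2 and transgenic replicate 1 were nearly level. The part of mitochondrial reads in the difference was not tested otherwise.

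The balance between parts of the complex shifted little. Summed normalized reads of 19S genes over those of 20S genes gave 1.21 and 1.27 in the WT pools and 1.26 and 1.27 in the transgenic pools. Beta ring over alpha ring gave 0.992 and 1.01 in the WT pools and 1.03 and 0.986 in the transgenic pools. Non-ATPases over ATPases gave 1.44 and 1.43 in the WT pools and 1.45 and 1.48 in the transgenic pools. Sums of reads weight long transcripts more, so the ratios compare libraries and not amounts of subunits.

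Between the groups, no proteasome gene passed the test. The limma adjusted p of the 46 genes ran from 0.392 to 0.935. Only *psmc3ip* and *psma6l*, 2 of the 46, had an unadjusted p under 0.05, fewer in proportion than the 11.0% of all genes. The mean log2 value was higher in Tg(hsp70l:sflt4) for 42 of 46 genes, against 48.7% of all genes tested, with a median log2 difference of 0.13 against -0.01 for all genes. The groups did not overlap for 13 genes that read higher in Tg(hsp70l:sflt4), against 21.8% of all genes in that direction. They did not overlap for 2 genes that read lower, against 21.4% of all genes. The 95% interval of the difference spanned 0 for 34 of the 35 subunit genes and reached a log2 difference of 1 for 0 of them. The largest upper bound was 0.81, for *psma6l*. Differences smaller than these intervals were not detectable with 2 libraries a group.

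The median difference rested on single libraries. Leaving out WT replicate 1 gave 0.02 and leaving out WT replicate 2 gave 0.25. Leaving out transgenic replicate 1 gave 0.24 and leaving out transgenic replicate 2 gave 0.05. The number of genes with a higher mean in Tg(hsp70l:sflt4) was 29 of 46 without WT replicate 1 and also 29 without transgenic replicate 2. It was 43 without WT replicate 2 and 42 without transgenic replicate 1. With the libraries scaled to equal totals, which moved the median of all genes from -0.01 to 0.10, the members' median was 0.24.

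**Figure D2:**
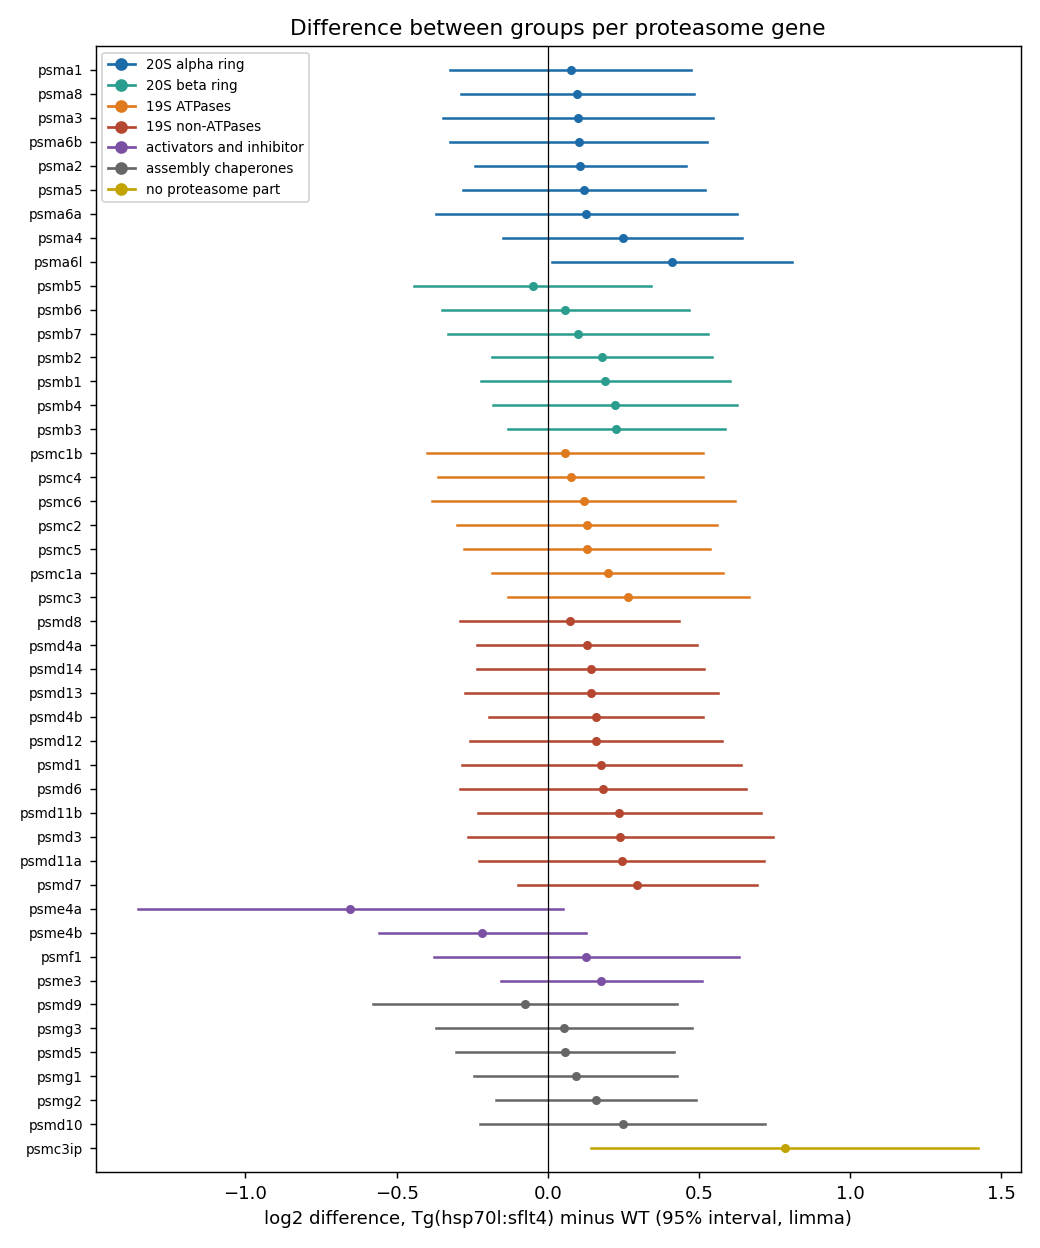
Log2 difference, Tg(hsp70l:sflt4) minus WT, for each of the 46 genes with its 95% limma interval (x axis), ordered within each part of the complex (y axis). Most points lie between 0 and 0.3, with *psme4a* lowest at -0.65 and *psmc3ip* highest at 0.78.

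The alpha ring encloses the entry to the 20S core. Its 9 genes all had the higher mean in Tg(hsp70l:sflt4), with a median log2 difference of 0.11. *psma6l*, an alpha type subunit gene close in name to *psma6a* and *psma6b* (chromosome 15, 47920629 to 47929455, danRer11), read 649 and 727 in the WT pools and 840 and 994 in the transgenic pools. Its groups did not overlap, and its log2 difference came to 0.41 with an SE of 0.16 (limma adjusted p = 0.440). *psma1*, at the other end of the ring, read 3046 and 3233 in the WT pools and 2974 and 3678 in the transgenic pools, with a log2 difference of 0.08 (SE 0.16). Its transgenic libraries lay on either side of the WT ones. *psma4*, the other alpha gene whose groups did not overlap, read 3461 and 4108 in the WT pools and 4217 and 4756 in the transgenic pools. *psma2* overlaps *mrpl32* on the opposite strand and *atad2* on its own, so its value is uncertain. In all, 9 of the 46 overlap another gene of the table and are uncertain in this way, namely *psma1*, *psma2*, *psma6b*, *psmc1a*, *psmd4a*, *psmd10*, *psmd11b*, *psmg3* and *psmc3ip*. *psma2* itself read 2006 and 2233 in the WT pools and 2187 and 2379 in the transgenic pools.

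Within the beta ring, the 3 catalytic genes had the log2 differences closest to 0. *psmb5*, for the chymotrypsin-like subunit (chromosome 2, 38373272 to 38392575), read 4952 and 5797 in the WT pools and 4886 and 5483 in the transgenic pools. That is 5374.5 ± 598 against 5184.5 ± 422 (SD, n = 2), a log2 difference of -0.05 (95% interval -0.44 to 0.34, limma adjusted p = 0.934). It was the lowest difference among the 35 subunit genes. *psmb6*, for the caspase-like subunit (chromosome 23, 44536926 to 44546152), read 1891 and 2208 in the WT pools and 1935 and 2338 in the transgenic pools. *psmb7*, for the trypsin-like subunit (chromosome 21, 8341774 to 8352095), read 3664 and 4329 in the WT pools and 3853 and 4730 in the transgenic pools. Their log2 differences were 0.06 (95% interval -0.35 to 0.47) and 0.10 (-0.33 to 0.53), and the groups overlapped for all of these genes.

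The 4 non-catalytic beta genes lay higher, with log2 differences of 0.18 to 0.23. *psmb3* read 3814 and 4220 in the WT pools and 4485 and 4920 in the transgenic pools, a log2 difference of 0.23 with an SE of 0.15 (limma adjusted p = 0.602). *psmb4* read 5374 and 6134 in the WT pools against 6184 and 7259, and *psmb2* read 4021 and 4627 against 4771 and 5000. The groups did not overlap for these 3 genes, while for *psmb1* they did, at 4262 and 5259 against 5163 and 5656. Of all genes tested, 21.8% were higher in Tg(hsp70l:sflt4) without overlap. Whether the catalytic and the other beta genes differ in response was not tested.

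The 19S ATPases form the ring that unfolds substrates and feeds them into the core. All 7 genes had the higher mean in Tg(hsp70l:sflt4), with a median log2 difference of 0.13, and all 7 were lowest in WT replicate 1. *psmc3* (chromosome 7, 38680034 to 38685337) had the largest difference and read 4794 and 5570 in the WT pools and 5799 and 6661 in the transgenic pools. Its log2 difference came to 0.27 with an SE of 0.16 (limma adjusted p = 0.581), and the groups did not overlap. *psmc1b* had the smallest, at 0.06, and read 1852 and 2476 in the WT pools and 2108 and 2355 in the transgenic pools. WT replicate 2 was its highest library.

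The 12 non-ATPase genes of the 19S particle followed this order in full. All 12 were lowest in WT replicate 1 and highest in transgenic replicate 2, and their median log2 difference was 0.17. *psmd7*, for the lid subunit that pairs with the deubiquitinase (chromosome 7, 67307273 to 67317119), read 1182 and 1438 in the WT pools and 1518 and 1690 in the transgenic pools. Its log2 difference of 0.30 (SE 0.16, limma adjusted p = 0.544) was the largest of the 12, and its groups did not overlap. *psmd14*, the gene of that deubiquitinase, which cuts ubiquitin chains from substrates, read 3247 and 3664 in the WT pools and 3564 and 4066 in the transgenic pools. The WT range reached into the transgenic one. *psmd1*, for the large scaffold subunit of the base, read 8302 and 9823 in the WT pools and 9106 and 11459 in the transgenic pools. *psmd8*, for a lid subunit, had the smallest difference at 0.07 and read 4295 and 4843 in the WT pools and 4611 and 4989 in the transgenic pools. The other lid genes *psmd3*, *psmd6*, *psmd12*, *psmd13*, *psmd11a* and *psmd11b* had log2 differences of 0.24, 0.18, 0.16, 0.14, 0.25 and 0.24.

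Pairs of gene copies kept nearly fixed proportions. *psma6a* read 1511 and 1972 in the WT pools and 1666 and 2136 in the transgenic pools, and took 55.6% to 57.7% of the reads of its pair in the 4 libraries. Its partner *psma6b* read 1205 and 1493 against 1327 and 1563. *psma6b* overlaps the NF-kB inhibitor gene *nfkbiaa* on the opposite strand, which read 1656 and 4507 in the WT pools and 2382 and 3106 in the transgenic pools. Whether reads of the overlap enter the value of *psma6b* was not tested. *psmc1a* read 4117 and 4746 in the WT pools and 4785 and 5375 in the transgenic pools, and took 65.7% to 69.5% of the reads with *psmc1b*. The share of *psmd4a*, which with *psmd4b* encodes the ubiquitin receptor of the particle, was 34.2% to 35.1%. The copies read 1184 and 1391 against 1367 and 1441 for *psmd4a*, and 2253 and 2577 against 2618 and 2767 for *psmd4b*. The share of *psmd11a*, a lid gene, with its copy *psmd11b* was 48.9% to 52.1%. *psmd11a* read 2289 and 2983 against 2811 and 3413, and *psmd11b* 2199 and 3018 against 2935 and 3141. Close copies can share reads, and no source used here says how the counting treated such reads.

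The activator *psme4* departed from this evenness. It encodes PA200, a nuclear cap of the core that in mammals acts in histone degradation. *psme4a* (chromosome 13, 35689749 to 35744963) read 1009 and 1822 in the WT pools and 886 and 838 in the transgenic pools, or 1415.5 ± 575 against 862.0 ± 33.9 (SD, n = 2). WT replicate 2 stood above the other 3 libraries, and the groups did not overlap. Its log2 difference came to -0.65 with an SE of 0.28 (limma adjusted p = 0.473). Without WT replicate 1 it was -1.08, with a lone WT library left in the comparison. Without WT replicate 2 it was -0.23. *psme4b* (chromosome 12, 23991276 to 24053079) read 2845 and 2644 in the WT pools and 2480 and 2249 in the transgenic pools, with no overlap and a log2 difference of -0.22 with an SE of 0.14 (limma adjusted p = 0.608). The share of *psme4a* in the pair was 26.2%, 26.3% and 27.1% in WT replicate 1 and the transgenic libraries and 40.8% in WT replicate 2, the library with the highest *hsp70l* value. These were the 2 members with lower values in Tg(hsp70l:sflt4) whose groups did not overlap.

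The other genes of this group read higher in Tg(hsp70l:sflt4) on average. *psme3*, for the nuclear activator PA28 gamma, read 2216 and 2420 in the WT pools and 2616 and 2622 in the transgenic pools, with a log2 difference of 0.18 (SE 0.13). *psmf1*, for PI31, first described as an inhibitor of the core, read 867 and 1127 in the WT pools and 1229 and 949 in the transgenic pools, so the groups overlapped.

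Assembly chaperone genes shared the order of the subunit genes in part. WT replicate 1 was lowest for 3 of 6 and transgenic replicate 2 highest for 3 of 6, and the median log2 difference was 0.08. *psmd10*, the gankyrin gene, whose product helps build the ATPase ring, read 471 and 422 in the WT pools and 466 and 602 in the transgenic pools, with a log2 difference of 0.25 (SE 0.19). It overlaps *nxt2* on the opposite strand, which read 304 and 319 in the WT pools and 242 and 285 in the transgenic pools. *psmd9*, another chaperone of that ring, read 479 and 669 in the WT pools and 525 and 550 in the transgenic pools, with a difference of -0.08 (SE 0.20). The WT libraries of *psmd9* enclosed both transgenic ones. The ring chaperone *psmd5* read 1011 and 1123 against 1047 and 1174. Of the 20S assembly chaperones, *psmg2* read 830 and 814 against 920 and 918, *psmg1* 1186 and 1309 against 1319 and 1339, and *psmg3* 611 and 491 against 566 and 572. The groups did not overlap for *psmg1* and *psmg2*, at log2 differences of 0.09 and 0.16.

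*psmc3ip* (chromosome 3, 37112693 to 37135569), which is no proteasome gene, had the smallest p of the 46. It read 83 and 105 in the WT pools and 164 and 159 in the transgenic pools, a log2 difference of 0.78 (SE 0.26, limma unadjusted p = 0.0246, adjusted p = 0.392). The groups did not overlap. It lies across *mlx* on the opposite strand, which read 1711 and 2177 in the WT pools and 1924 and 2260 in the transgenic pools. Without strand in the counting, reads of the overlap could not be told apart.

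The immunoproteasome and activator genes set aside by the rule followed another order in part. WT replicate 1 was lowest for 4 of these 7 genes, as for most subunit genes, but transgenic replicate 2 was highest for 0. Immunoproteasome subunits replace the catalytic ones when interferon acts on a cell. *psmb8a*, the counterpart of *psmb5*, read 796 and 1019 in the WT pools and 1688 and 916 in the transgenic pools. It made up 13.8% and 15.0% of the reads of that pair in the WT pools and 25.7% and 14.3% in the transgenic pools, so a single transgenic library stood high. *psmb9a*, the counterpart of *psmb6*, read 335 and 378 in the WT pools and 457 and 257 in the transgenic pools, and took 15.0% and 14.6% against 19.1% and 9.90%. *psmb10*, the counterpart of *psmb7*, read 729 and 1228 against 1280 and 1206, and took 16.6% and 22.1% against 24.9% and 20.3%. In exact two-sided permutation tests of the log2 ratio, the adjusted p was 1 for each of the 3 pairs, and 2 against 2 libraries cannot go below an unadjusted 0.333. Transgenic replicate 1 held the highest share in all 3 pairs, whereas 33 of the 35 constitutive subunit genes were highest in transgenic replicate 2. Among these pairs *psmb5* was an exception, with its highest value in WT replicate 2. *psme1* and *psme2*, whose products form the interferon-induced cap PA28, read 5931 and 6727 against 7473 and 6963, and 2789 and 3187 against 3649 and 3579. Their groups did not overlap, with log2 differences of 0.19 and 0.28 (limma adjusted p = 0.671 and 0.530). In all, 5 of these 7 genes had the higher mean in Tg(hsp70l:sflt4), and 0 passed the limma test or reached an unadjusted p under 0.05. The genes *psmb8a*, *psmb9a*, *psmb12* and *psmb13a* overlap each other on chromosome 19, so their values are uncertain.

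**Figure D3:**
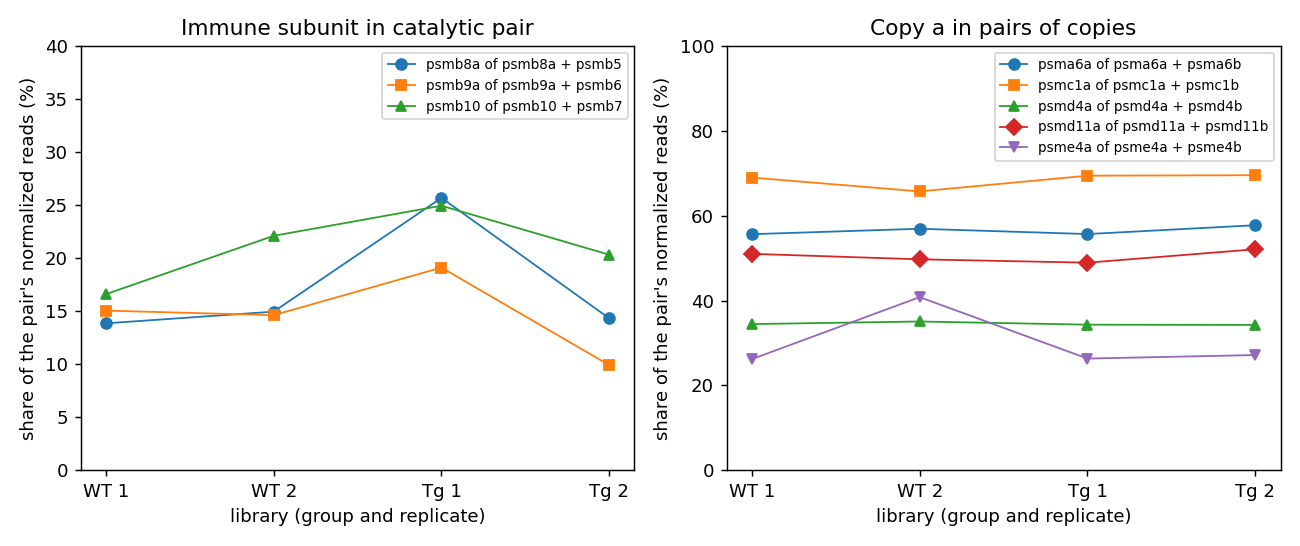
Share of the immune subunit in the reads of each catalytic pair (left) and of copy a in each pair of copies (right), in percent, for each library (x axis), with lines joining the points of a pair. The immune shares peak in transgenic replicate 1, at 25.7% for *psmb8a*, and among copies the share of *psme4a* reaches 40.8% in WT replicate 2 against at most 27.1% in the other libraries.

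Proteasome parts with other names partly followed the subunits. Of 11 such genes found, 5 had the higher mean in Tg(hsp70l:sflt4), 0 passed the limma test or reached an unadjusted p under 0.05, and the median log2 difference was -0.01. *adrm1*, for a ubiquitin receptor of the 19S particle, read 2221 and 2549 in the WT pools and 2410 and 2844 in the transgenic pools. *pomp*, for the maturation factor of the 20S core, read 3632 and 4102 against 4058 and 4431. *usp14*, for a deubiquitinase bound to the particle, read 1954 and 2279 against 2373 and 2627, and *akirin2*, which in human cells serves nuclear import of proteasomes, read 902 and 859 against 998 and 1144. For *usp14* and *akirin2* the groups did not overlap, with log2 differences of 0.24 and 0.28 (limma adjusted p = 0.591 and 0.534). By contrast, *sem1* read 3754 and 4274 against 3597 and 4405, and *uchl5* read 1510 and 1300 against 1303 and 1546. Their log2 differences were -0.01 and 0.02, and neither was lowest in WT replicate 1. Both were highest in transgenic replicate 2, like most subunit genes. Of the 11 genes, 7 were lowest in WT replicate 1 and 6 were highest in transgenic replicate 2, against 29.6% and 26.4% of all genes tested. Other genes of this list stood high in WT replicate 2: *zfand5b* read 1668 and 3600 in the WT pools and 1570 and 2037 in the transgenic pools.

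Genes for factors that control proteasome genes gave 7 higher and 12 lower means among 19 found, with a median log2 difference of -0.06, 1 gene at an unadjusted p under 0.05 and 0 passing the limma test. *nfe2l1a*, a copy of the gene for Nrf1, read 910 and 1802 in the WT pools and 1081 and 494 in the transgenic pools. It was lowest in transgenic replicate 2, the library in which most subunit genes were highest. The other copy, *nfe2l1b*, read 2537 and 3180 in the WT pools and 3118 and 2552 in the transgenic pools, with a log2 difference of -0.01 (SE 0.18). Only transcripts were measured, and the activity of Nrf1 was not tested. *nfe2l2a*, for the oxidative stress factor Nrf2, read 3751 and 4091 against 4173 and 3893, and its copy *nfe2l2b* 54 and 53 against 34 and 33. *hsf2*, a heat shock factor gene, read 400 and 484 in the WT pools and 306 and 306 in the transgenic pools, a log2 difference of -0.52 with an SE of 0.18 (limma adjusted p = 0.406).

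Ubiquitin genes and the receptors that deliver substrates were set beside the subunits' order of libraries. WT replicate 1 was lowest for 1 of 5 ubiquitin genes and E1 enzymes and for 8 of 12 shuttle and p97 genes. Among all genes tested it was lowest for 29.6%. Transgenic replicate 2 was highest for 2 and 3 of them, against 26.4% of all genes tested. The polyubiquitin gene *ubb* read 12401 and 24989 in the WT pools and 10538 and 11448 in the transgenic pools, high in WT replicate 2 like *hsp70l*. *uba1*, for the ubiquitin-activating enzyme, read 12613 and 12266 against 14802 and 16317, with no overlap and a log2 difference of 0.32 with an SE of 0.15 (limma adjusted p = 0.502). Of 5 genes in this list 2 had the higher mean, and of 12 shuttle and p97 genes 5 did. The limma test passed 0 in either list, and *rad23ab* was the 1 gene at an unadjusted p under 0.05. *rad23ab*, a shuttle receptor gene, read 1218 and 1482 against 1023 and 998, and *nbr1a*, an autophagy receptor gene, 1144 and 1093 against 946 and 871. The polyubiquitin gene *ubc* read 15251 and 21668 against 19144 and 22078, and *nsfl1c*, for a cofactor of p97, 2731 and 3358 against 3544 and 3946. *vcp*, for the unfoldase p97 itself, read 17517 and 20737 in the WT pools and 20931 and 21971 in the transgenic pools.

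Heat shock genes and cell type markers are set beside the subunit genes, since they also moved between libraries. Heat shock genes had a median deviation of -0.22 in WT replicate 1, 0.74 in WT replicate 2, -0.02 in transgenic replicate 1 and -0.38 in transgenic replicate 2, with 14 of 15 lower on average in Tg(hsp70l:sflt4), 1 at an unadjusted p under 0.05 and 0 passing. *hsph1*, a chaperone gene, read 2893 and 5131 against 2318 and 1157, and *hsp90aa1.1*, for an inducible Hsp90, 24603 and 59627 against 24555 and 6084. By these medians transgenic replicate 2 was lowest for this list and highest for the subunit genes. The subunit genes had medians of -0.20, 0.05, -0.02 and 0.18 in the same order of libraries. Gene by gene, WT replicate 1 was lowest for 7 of the 15 heat shock genes, as it was for most subunit genes. Transgenic replicate 2 was highest for 0 of the 15. *hsp70.1*, for example, read 140 and 2356 in the WT pools and 304 and 189 in the transgenic pools.

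Macrophage markers, 10 genes in all, had median deviations of -0.29 and -0.13 in the WT pools and 0.07 and 0.44 in the transgenic pools. Of the 10, 9 were higher on average, 7 of them without overlap, 5 stood at a limma unadjusted p under 0.05 and 0 passed. Among all genes tested, 48.7% were higher, 21.8% were higher without overlap and 11.0% stood at an unadjusted p under 0.05. The summed values of the macrophage markers were 41328 and 41958 in the WT pools and 65771 and 81904 in the transgenic pools. These sums include the 2 markers with the largest log2 differences, *lgals9l1* at 1.35 and *grn1* at 1.30. *lgals9l1* read 4918 and 4405 against 12167 and 11588, and *grn1* 13171 and 7444 against 21140 and 27956. *mpeg1.1* read 5184 and 4611 against 4320 and 5642, a log2 difference of 0.01. *csf1ra*, the 1 marker with the lower mean, read 2129 and 1179 against 1165 and 829, a log2 difference of -0.69. Between the WT libraries single markers went both ways, with *grn1* at 13171 and 7444 and *marco* at 5107 and 11258. Cardiomyocyte markers, 12 rows, had median deviations of 0.21 and -0.01 in the WT pools and -0.11 and -0.13 in the transgenic pools, and sums of 1627203 and 1391304 against 1122899 and 1168287. By these medians WT replicate 1 was highest for heart muscle and lowest for macrophage and subunit genes. This library was also highest by median for erythrocytes (0.42), neutrophils (0.24), endothelium (0.26), epicardium (0.43) and skeletal muscle (0.43). It was not highest for lymphocytes or liver. The mean deviations of the cardiomyocyte rows were 0.52 and -0.31 in the WT pools and 0.22 and -0.43 in the transgenic pools. The cardiomyocyte sums include the 2 most abundant rows. Of these, *myh7l* read 703025 and 527025 against 404577 and 437436, and *myl7* read 335222 and 316610 against 204313 and 245157. Single cardiomyocyte rows went both ways, with 9 of 12 lower on average in Tg(hsp70l:sflt4) and 3 higher. At a limma unadjusted p under 0.05 stood 2 rows, *myl7* lower and *myh6* higher, and 0 passed. *myh6*, among the higher, read 5811 and 5561 in the WT pools and 12678 and 7074 in the transgenic pools. The mean deviation of the macrophage markers, unlike the median, was level in the WT pools at -0.27 and -0.27. In tissue samples, fewer cells of a type and less RNA per cell cannot be told apart, and the part of cell composition in the subunit profile was not tested. Markers of erythrocytes, neutrophils, lymphocytes, endothelium, epicardium, skeletal muscle and liver had 0 calls, with 1 gene each at an unadjusted p under 0.05 for neutrophils, epicardium and skeletal muscle, and the sums of erythrocyte markers were 83142 and 45608 in the WT pools and 37985 and 77037 in the transgenic pools.

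**Figure D4:**
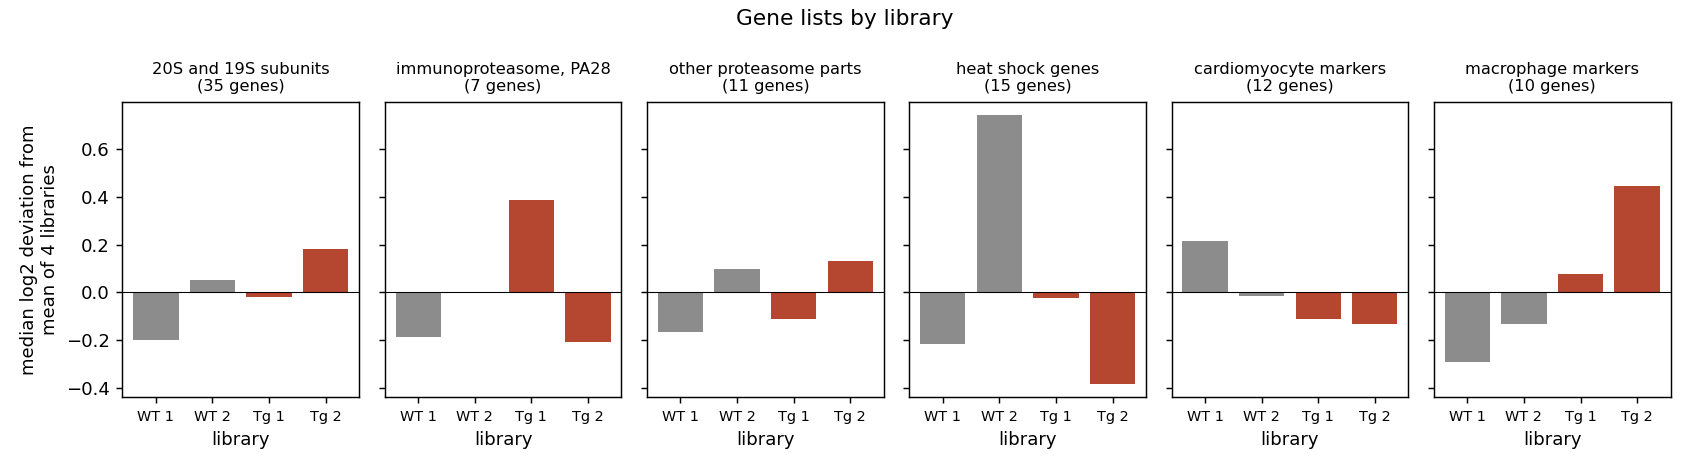
Median log2 deviation from the mean of the 4 libraries (y axis) for 6 gene lists in WT (grey) and Tg(hsp70l:sflt4) (red, Tg) libraries, 1 bar per library. Subunit genes run from -0.20 in WT replicate 1 to 0.18 in transgenic replicate 2, while heat shock genes peak at 0.74 in WT replicate 2.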

How the data were processed

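The authors deposited 1 table of values for 2 WT and 2 Tg(hsp70l:sflt4) libraries. The deposited unit is a score here: whole numbers that result from scaling each library's read counts by its own size factor. The genome build was danRer11, and the tools listed were DESeq2 1.18.1, featureCounts 1.6.3 from the Subread package, Trimmomatic 0.38 and FastQC, per the submitters' processing notes, which give no role. The aligner they used is not given in these sources. The kit was stranded, per the labels' protocols, and whether the counting used strand is not stated. Columns were matched to samples by title.

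Size factors were estimated from the rounding pattern, a method tested on simulated data. Genes with a mean of at least 10 were log2-transformed after adding 1 and tested with limma 3.58.1 (R 4.3.3), with trend and robust moderation and Benjamini-Hochberg adjustment over 17071 genes. Fold changes on this scale understate low genes. Nothing says that libraries came from separate cohorts, so p-values reflect only how far these libraries vary. Intervals are 95% limma intervals.

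Members and lists were chosen with earlier results of these data known. Named genes are the catalytic genes, pairs of copies, the extremes of each part of the complex and the 2 smallest p of each pathway list, with other members by their values. Other genes outside the members, such as *adrm1*, *sem1*, *uchl5*, *vcp*, *ubc*, *nsfl1c*, *zfand5b*, *grn1*, *marco* and *myh7l*, were chosen after their values were seen. Transcript lengths and promoter sequences were not used here, so levels were not compared between genes and no motif was searched.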

Additional observations from a re-analysis of the deposited data

How the results depend on the processing

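Of the 46 genes, 26 kept their direction without each library in turn and 20 changed it without at least 1 library. Their log2 differences over these leave-outs ranged from -0.077 to 0.23 for *psma1*, -0.042 to 0.24 for *psma3*, -0.064 to 0.32 for *psma6a*, -0.052 to 0.26 for *psma6b*, -0.017 to 0.21 for *psma8*, -0.16 to 0.064 for *psmb5*, -0.079 to 0.19 for *psmb6*, -0.048 to 0.25 for *psmb7*, -0.15 to 0.27 for *psmc1b*, -0.022 to 0.28 for *psmc2*. They were -0.087 to 0.24 for *psmc4*, -0.024 to 0.28 for *psmc5*, -0.074 to 0.31 for *psmc6*, -0.0059 to 0.29 for *psmd13*, -0.025 to 0.14 for *psmd5*, -0.0018 to 0.37 for *psmd6*, -0.014 to 0.16 for *psmd8*, -0.32 to 0.17 for *psmd9*, -0.061 to 0.32 for *psmf1* and -0.10 to 0.21 for *psmg3*. Without single libraries the members called numbered 0 to 1 (*psme4a* without WT replicate 1), those at an unadjusted p under 0.05 numbered 0 to 5, and their median was 0.02 to 0.25. Over all genes the calls numbered 0 to 217, with 217 without WT replicate 1 and 73 without WT replicate 2, and genes at an unadjusted p under 0.05 numbered 695 to 2771. A left-out library leaves a lone library in its group, assumed to vary like the others.

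With equal totals, 4 members reached an unadjusted p under 0.05, the median of all genes was 0.10 (log2), and *psmb5* and *psmd9* turned to 0.061 and 0.035. With equal totals outside mitochondrial genes, an alternative chosen after seeing the data, the median of all genes was 0.041, that of the members 0.18, and *psmb5* stood at 0.0022. A pseudocount of 5, no filter, a mean of at least 50, upper-quartile scaling and limma-voom changed no direction of a member, and 0 members were called. With the replicate number as a block, 0 members were called, 2 reached an unadjusted p under 0.05, and 2285 of all genes did. Deviations of same-numbered libraries correlated at 0.14 over 17071 genes, and the labels do not say that the numbers pair the pools. The comparison of lengths was not run. The estimated counting error of the subunit genes was, in the median, below their spread between replicates. Whether depth had a part in their shared profile was not tested.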

Other observations

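A further gene outside the name rule, *si:rp71-45k5.4* on chromosome 19, carries the pathway term Proteasome and is named PSMA2 in the reference table of gene names. It read 2388 and 2759 in the WT pools and 2653 and 3133 in the transgenic pools, with a log2 difference of 0.17 with an SE of 0.16 (limma adjusted p = 0.727). It had the same order of libraries as most subunit genes, lowest in WT replicate 1 and highest in transgenic replicate 2. It was chosen after its values were seen.

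Among the cardiomyocyte marker rows, 2 rows carry the name *actc1a*. The more abundant read 95804 and 95534 in the WT pools and 74109 and 87448 in the transgenic pools. The other read 11241 and 65 in the WT pools and 5771 and 50 in the transgenic pools, higher in replicate 1 of both groups. This row was also chosen after its values were seen.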
